A study of Drosophila melanogaster with 18 samples.

Results

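The transcripts of the backbone and cleavage subunits of Integrator, a complex that cuts RNA as RNA polymerase II makes it, and of its small subunit IntS12, were measured while 1 subunit was made in excess. The genes were IntS1, IntS2, IntS3, IntS4, omd (IntS5), defl (IntS7), IntS8, IntS9, IntS11 and IntS12, taken by FlyBase symbol from a table of 17753 gene identifiers. Of these 10 genes 9 had a row in the table under the identifier that the reference pairs with the symbol, and all 9 passed the filter on low counts. IntS8 was not analysed here, because the reference identifier FBgn0289323 matched no row. Total RNA was taken from DL1 cells, a cultured Drosophila melanogaster line, and sequenced after rRNA removal. Parental DL1 cells were compared with 2 puromycin-selected DL1 populations that stably carry FLAG-IntS6 or FLAG-IntS12 behind MtnA, a metallothionein promoter that copper switches on. Each kind of cell was grown for 3 d at 25 °C, either with no copper or with copper sulfate at 500 µM during the final 24 h, giving 6 groups of 3 libraries lettered A to C. The labels describe puromycin selection for the lines alone, so selection and transgene cannot be told apart in a comparison with parental cells. The genotype label of the untreated line libraries reads wild type, and their titles place them in the lines. The submitters call the letters biological replicate sets without saying whether cultures were separate or what a set shares, so p-values measure how far these samples spread, part of which may be technical. RNA came from whole cultures, in which fewer cells of a kind and less RNA per cell cannot be told apart.

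In the complex, IntS11 is the endonuclease and IntS9 its catalytically inactive partner, and IntS4 holds the pair together as the cleavage module. IntS1, IntS2 and IntS7 form the backbone, IntS5 and IntS8 pack against it, and IntS3 is a peripheral subunit that in human cells also belongs to a single-stranded DNA-binding complex. IntS12 is a small PHD-finger protein that binds IntS1. IntS6 and IntS8 contact protein phosphatase 2A, which removes phosphates from the polymerase and its partners. Integrator is known for forming the 3′ ends of small nuclear RNAs and for ending transcription early at many protein-coding genes, metallothionein genes among them.

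The 18 libraries held 13217764 to 18214756 counts each, and after rRNA genes were set aside 3.69 to 4.94 M were left. The 8 measured genes other than IntS12 had 116 to 1404 counts per library and IntS12 had 45 to 1544. The SD between libraries of a group was at most 13.7% of the mean for those 8 genes, with a median of 5.19%, against a counting error of 2.88% to 8.77%. Of 12 hemocyte markers 10 reached a mean of 1 CPM (CPM being counts scaled by each library's normalized size), and the summed level of the list ran from 385 to 644 CPM. Among them the GATA factor gene srp stood at 99.4 CPM in untreated parental cells, and Hml and Pxn at 2.53 and 2.98 CPM. Of 4 fat body markers 3 had no count in any library, and the muscle gene up and the yolk protein gene Yp1 had none. The follicle cell factor gene tj averaged 116 CPM over all libraries, Mef2 38.6 CPM and elav 18.6 CPM, while the other markers on the germline and follicle, muscle and neuron lists were each below a mean of 1 CPM.

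Before any excess, the measured subunit transcripts lay within a narrow range. Levels of different genes were compared as TPM, which divides counts by exon length and scales each library to the same total, here without rRNA genes. In untreated parental cells the backbone gene IntS1 was highest at 62.9 ± 3.66 TPM (SD, n = 3) and the cleavage-module scaffold IntS4 lowest at 22.0 ± 2.26 TPM. The endonuclease gene IntS11 stood at 53.2 ± 0.680 TPM and its partner IntS9 at 27.0 ± 1.34 TPM. Between these lay IntS3 (49.4 TPM), omd (45.5 TPM), IntS2 (34.1 TPM) and defl (29.6 TPM), and IntS12 stood at 24.2 ± 2.34 TPM. In this order IntS3 overlapped omd in its library values, and IntS12 overlapped IntS4. IntS6, between IntS9 and IntS12 at 25.8 TPM, overlapped both, and the remaining neighbours did not overlap. With copper the ratio of the highest to the lowest of the 8 genes went from 2.87 ± 0.239 to 4.32 ± 0.179 in parental cells (SD, n = 3 each).

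The induced transgenes stood far above this range on the same per-length scale. IntS6 reached 2237 ± 142 TPM in its line with copper, 53.5 ± 4.80 times the mean of the 8 other genes in the same libraries, and IntS12 reached 455 ± 18.5 TPM in its own, 11.4 ± 0.650 times that mean. In untreated parental cells those ratios were 0.638 ± 0.0408 for IntS6 and 0.598 ± 0.0531 for IntS12. Without copper each line already held more of its own transgene's gene, at ratios of 1.59 ± 0.0889 for IntS6 and 1.00 ± 0.167 for IntS12. Exon length includes untranslated regions, and no source used here says whether the transgenes carry them, so the transgene ratios may be misstated. The mean of the 8 other genes themselves was 40.5 ± 0.715 TPM in untreated parental cells and 40.4 ± 2.14 TPM with copper. It was 41.9 ± 1.94 TPM with induced IntS6 and 39.8 ± 0.689 TPM with induced IntS12, both inside the 38.6 to 42.8 TPM of the copper-treated parental libraries.

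**Figure D1:**
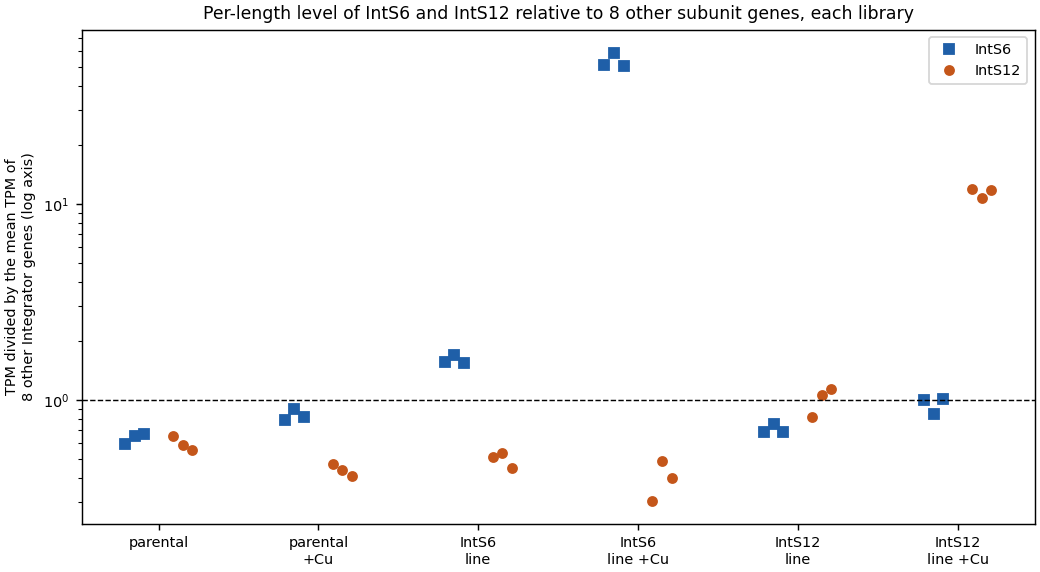
The level per exon length of IntS6 (squares) and IntS12 (circles) divided by the mean TPM of IntS1, IntS2, IntS3, IntS4, omd, defl, IntS9 and IntS11 in the same library, on a log axis, with 1 point for each of the 3 libraries in the 6 groups. IntS6 lies at 50.5 to 59.0 in its line with copper and IntS12 at 10.7 to 11.9 in its line with copper, and every other group lies below 2 on this axis.

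The first question was whether excess IntS6 changes the transcripts of the other subunits. Of the 8 genes 1 was called against parental cells given copper, omd, which was higher, and 0 were lower (edgeR quasi-likelihood test, Benjamini-Hochberg adjusted p under 0.05 over 8174 genes). In this comparison 8.91% of all tested genes were called. An unadjusted p under 0.05 was found for 3 of the 8, omd, IntS11 and IntS3, and the share of all tested genes at that level was not counted. The median log2 fold change of the 8 genes was 0.03, beside -0.01 over all tested genes, while IntS6 itself was 65.1-fold higher. The 95% intervals of the 8 genes together spanned -0.38 to 0.54 on the log2 scale, that is from 1.30-fold lower to 1.45-fold higher.

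The gene omd (FBgn0038168, chromosome 3R, 13679440 to 13687210, minus strand, protein-coding with 3 annotated transcripts) encodes IntS5, which packs against the backbone. It measured 22.5, 20.9 and 23.6 CPM in the parental copper libraries A, B and C, and 32.2, 26.8 and 24.8 CPM in the IntS6 copper libraries. All 3 IntS6 copper libraries lay above the parental ones, with library A highest and library C nearest to the parental values. The log2 fold change was 0.33 ± 0.10 (SE, n = 3 per group, edgeR adjusted p = 0.0387), a 1.26-fold difference with a 95% interval of 1.09 to 1.45. The call ended when only these 2 groups were fitted (adjusted p = 0.137) and without IntS6 copper library A (log2 0.21, 0.258) or B (0.0528). Leaving out parental copper library A (0.0779) or B (0.129) ended it as well, and the log2 fold change stayed between 0.21 and 0.41 in all 13 alternatives. Copper lowered omd in parental cells, from 27.7 ± 2.46 to 22.3 ± 1.37 CPM (SD, n = 3), and the IntS6 line stood at 26.4 ± 0.802 CPM without copper and 28.0 ± 3.84 CPM with it (SD, n = 3). The difference between these 2 copper responses was 0.40 ± 0.14 on the log2 scale and was not called (adjusted p = 0.232). MtnA, which copper induces, stood at 549 ± 59.4 CPM in the IntS6 copper libraries and 319 ± 82.3 CPM in the parental ones (SD, n = 3). Of 11 tested hemocyte markers 3 were higher in the IntS6 copper libraries (Hml, Ppn and drpr) and 0 lower, with Hml at 33.2 ± 12.9 CPM against 2.81 ± 1.05 CPM. Of all tested genes 8.91% were called in this comparison. The summed hemocyte list stood at 511 to 644 CPM in the IntS6 copper libraries and 385 to 450.5 CPM in the parental copper libraries. Ppn, the highest gene of that list, stood at 251 ± 36.0 CPM and 171 ± 23.9 CPM in these groups (SD, n = 3). The part of these shifts in the omd difference was not tested.

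In the cleavage module, none of IntS11, IntS9 and IntS4 was called with induced IntS6. IntS11 (FBgn0039691, chromosome 3R, 29745337 to 29747513, plus strand, protein-coding) measured 22.7, 19.4 and 19.3 CPM in parental copper libraries A, B and C, and 17.4, 18.2 and 17.2 CPM in the IntS6 ones. The groups did not overlap and the log2 fold change was -0.21 ± 0.08, but it did not pass over all genes (adjusted p = 0.115). An antisense RNA gene, asRNA:CR46109, covers 32.7% of the exon bases of IntS11 on the other strand, and it had at most 2 counts in any library. The kit kept strand but the counting setting is not stated, so reads of the pair may have been shared. IntS9 (FBgn0036570, chromosome 3L, 16103432 to 16105627, minus strand, protein-coding) stood at 10.7 ± 0.453 CPM against 10.5 ± 0.412 CPM in parental cells, and its library values overlapped. IntS4 (FBgn0026679, chromosome X, 8555239 to 8558781, minus strand, protein-coding) stood at 10.6 ± 0.287 against 9.90 ± 0.488 CPM (SD, n = 3 each), also with overlapping libraries.

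The backbone genes were likewise not called with induced IntS6. IntS1 (FBgn0034964, chromosome 2R, 24037943 to 24044458, plus strand, protein-coding), whose product is the largest subunit, stood at 75.3 ± 2.67 CPM against 78.8 ± 0.687 CPM. Its interval was the narrowest in this comparison, -0.19 to 0.05 on the log2 scale, and its libraries did not overlap the parental ones. IntS2 (FBgn0030858, chromosome X, 17652761 to 17656818, minus strand, protein-coding) had overlapping libraries and a log2 fold change of 0.02 ± 0.10. For defl (FBgn0036038, chromosome 3L, 9723423 to 9726706, plus strand, protein-coding), the IntS7 gene, it was -0.12 ± 0.08.

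IntS3 (FBgn0262117, chromosome 2R, 4235779 to 4242934, minus strand, protein-coding), the peripheral subunit gene, measured 29.5, 26.4 and 23.9 CPM in parental copper libraries A, B and C, and 33.2, 29.3 and 29.1 CPM in the IntS6 ones. The highest parental library lay above the lower 2 IntS6 libraries, so the groups overlapped, while within each letter the IntS6 library was the higher one, in 3 of 3 pairs. Its log2 fold change of 0.20 ± 0.08 was not called (edgeR adjusted p = 0.147, and 0.0958 with the replicate letter as a block), and without parental copper library A it was (log2 0.28, adjusted p = 0.0493). IntS12, at 3.30 ± 0.682 CPM against 3.62 ± 0.317 CPM (SD, n = 3), was not called either, with an interval of -0.49 to 0.20 on the log2 scale.

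**Figure D2:**
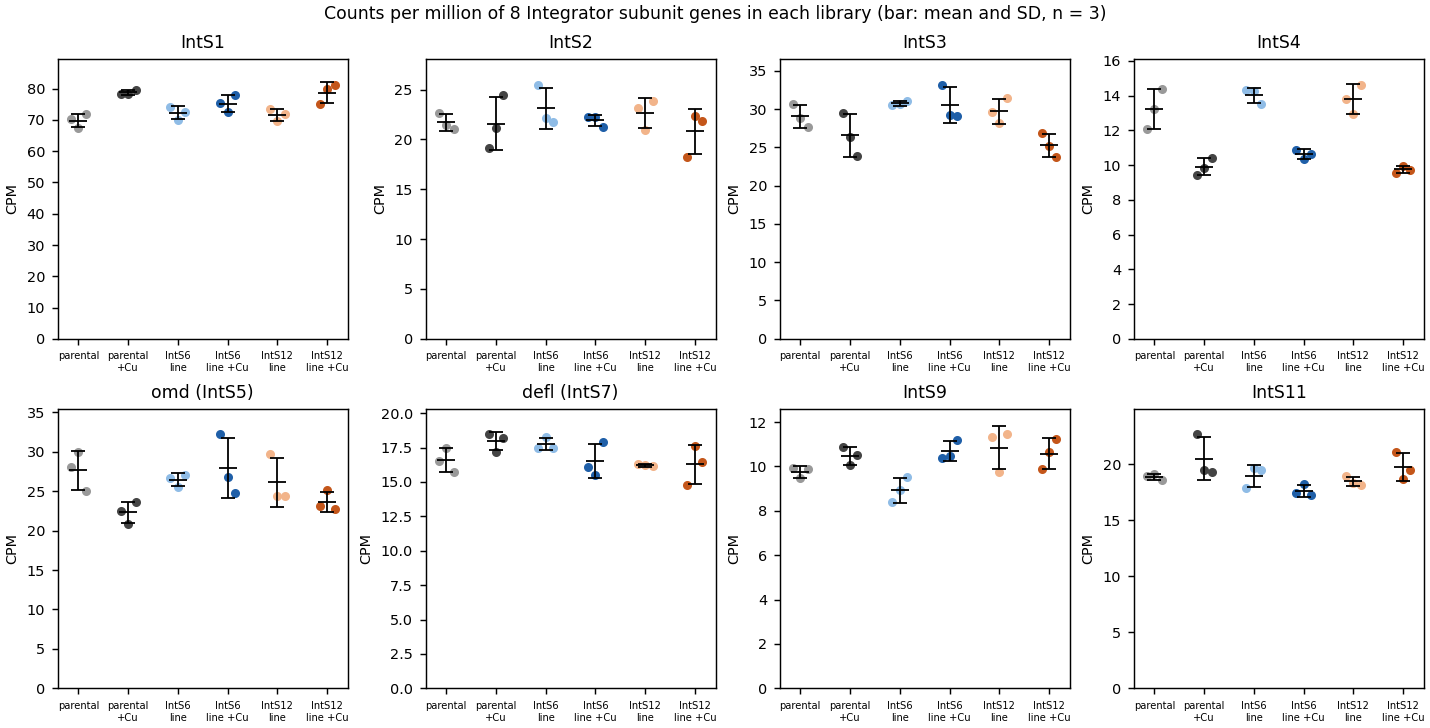
CPM of 8 Integrator subunit genes in each of the 18 libraries, grouped by kind of cell and copper, with axes from 0 and the mean and SD of the 3 libraries of a group as bars. The IntS4 libraries with copper (9.45 to 10.9 CPM) lie below all those without (12.1 to 14.6 CPM), and the omd libraries of the IntS6 line with copper (24.8 to 32.2 CPM) lie above those of parental cells with copper (20.9 to 23.6 CPM).

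The same question was then asked of excess IntS12. Against parental cells with copper, 0 of the 8 genes were called by the edgeR quasi-likelihood test, 0 had an unadjusted p under 0.05, and 0 were called by DESeq2. Only 0.0245% of all tested genes were called in this comparison. The library values of all 8 genes overlapped those of the copper-treated parental cells. Here and elsewhere overlap and an unadjusted p under 0.05 were counted for named genes alone. The share of all tested genes with either was not counted, and the shares given are of genes called after adjustment. The median log2 fold change of the 8 was -0.03, beside 0.01 over all tested genes, and the largest was that of defl at -0.14 ± 0.08. Their 95% intervals together spanned -0.32 to 0.30, from 1.25-fold lower to 1.23-fold higher. For IntS1, to whose product IntS12 binds, the log2 fold change was 0.00 ± 0.06 with an interval of -0.12 to 0.12, and IntS11 stood at -0.05 ± 0.08. IntS6 was not called, at 40.5 ± 3.39 CPM against 36.3 ± 1.45 CPM (SD, n = 3 each).

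**Figure D3:**
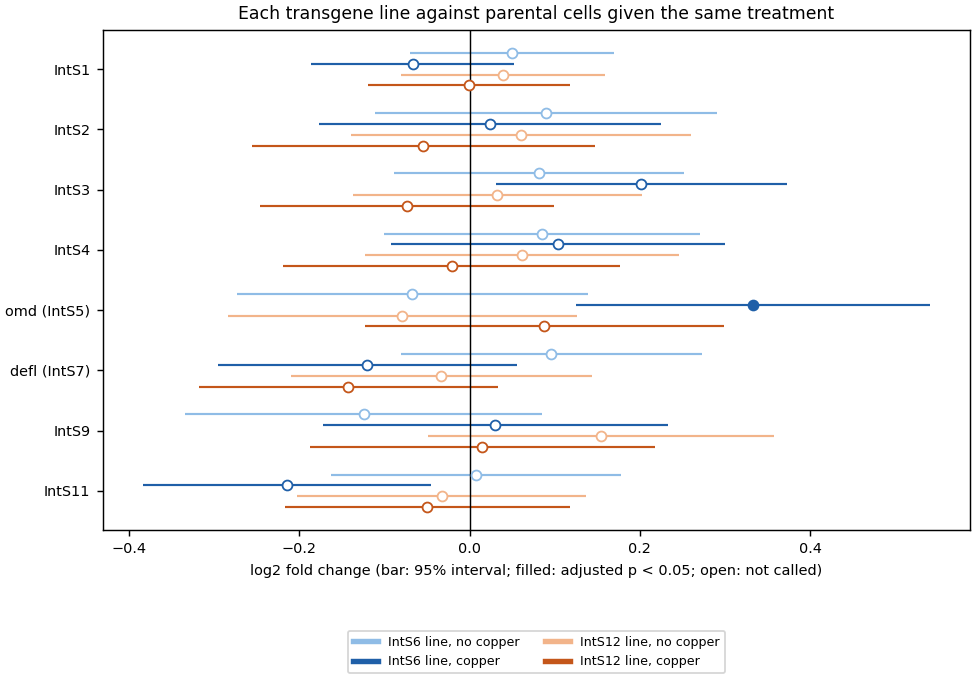
The log2 fold change of each of 8 subunit genes in the IntS6 line (blue) and IntS12 line (orange) against parental cells given the same treatment, pale without copper and dark with copper, with 95% intervals. Filled points passed an adjusted p of 0.05, which omd at 0.33 in the IntS6 line with copper did, and the open points lie between -0.21 and 0.20.

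Without copper, when each line held a small excess of its own transgene's gene, none of the 8 genes was called in either line. In the IntS6 line 0 of 8 were called by edgeR's quasi-likelihood test, 0 had an unadjusted p under 0.05 and DESeq2 called 0, where 0.208% of all genes were called. The 8 log2 fold changes ran from -0.12 for IntS9 to 0.10 for defl. In the IntS12 line the counts were also 0, 0 and 0, with 0.0367% of all genes called, and the values ran from -0.08 for omd to 0.15 for IntS9. The intervals of the 8 genes spanned -0.33 to 0.29 in the IntS6 line and -0.28 to 0.36 in the IntS12 line.

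The induced lines were also set directly against each other. None of the 8 genes was called by edgeR's quasi-likelihood test or by DESeq2, where edgeR called 5.80% of all genes. An unadjusted p under 0.05 was found for 2, IntS3 and omd, and the share of all genes at that level was not counted. IntS3 was nearest to the threshold, with 33.2, 29.3 and 29.1 CPM in IntS6 copper libraries A, B and C and 26.8, 25.2 and 23.8 CPM in the IntS12 ones. These libraries did not overlap, and the log2 fold change was 0.28 ± 0.08 (edgeR adjusted p = 0.0513). With DESeq2's size factors in the same edgeR fit it was called (adjusted p = 0.0439), as it was with the replicate letter as a block (0.0256). For omd the log2 fold change was 0.24 ± 0.10 (adjusted p = 0.179), with overlapping libraries.

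Copper, which every induced sample also received, moved single subunits by small amounts. In the lines it also switched on the transgene, so only the parental comparison shows copper by itself. In parental cells IntS4 and omd fell and IntS1 rose, 3 of 8 genes, where 38.6% of all tested genes were called. In the IntS6 line IntS4 fell and IntS9 rose, 2 of 8, with 42.6% of all genes called, and in the IntS12 line IntS4 and IntS3 fell, 2 of 8, with 36.8% of all genes called. The share of subunit genes called was thus close to or below the background in each kind of cell. The median log2 fold changes of the 8 genes were 0.05 in parental cells, -0.04 in the IntS6 line and -0.08 in the IntS12 line, beside 0.00, -0.01 and 0.01 over all tested genes.

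IntS4, the scaffold of the cleavage module, was called lower with copper in all 3 kinds of cell and under all 13 alternatives in each. In parental libraries A, B and C it measured 12.1, 13.3 and 14.4 CPM without copper and 9.45, 9.83 and 10.4 CPM with it. In the IntS6 line it measured 14.3, 14.2 and 13.5 CPM without copper and 10.9, 10.3 and 10.6 CPM with it. In the IntS12 line the values were 13.8, 12.9 and 14.6 CPM without copper and 9.56, 9.96 and 9.75 CPM with it. Every library with copper lay below every library without. The falls were 1.34-fold (adjusted p = 0.00109), 1.32-fold (0.00115) and 1.41-fold (0.000181) by edgeR's quasi-likelihood test, with log2 fold changes of -0.42 ± 0.09, -0.40 ± 0.09 and -0.50 ± 0.09. The copper response of IntS4 in the IntS6 line minus that in parental cells was 0.02 ± 0.13, and in the IntS12 line minus parental cells -0.08 ± 0.13, and neither was called. The follicle cell factor gene tj also fell with copper, from 159 ± 7.86 to 68.4 ± 20.2 CPM in parental cells (SD, n = 3), and Mef2 from 44.7 ± 3.78 to 36.2 ± 5.09 CPM. Both fell in the lines too. In parental cells the follicle and germline list summed to 150 to 164 CPM without copper and 50.1 to 90.3 CPM with it, and the muscle list to 41.8 to 49.7 and 31.8 to 42.1 CPM. Hemocyte markers moved in both directions, with 5 of 11 higher and 3 lower in parental cells, 6 and 3 in the IntS6 line and 4 and 3 in the IntS12 line. Of all tested genes 38.6%, 42.6% and 36.8% were called in these kinds of cell. The hemocyte list summed to 479 to 606.5 CPM in parental cells without copper and 385 to 450.5 CPM with it. Ppn, its highest gene, held most of that fall, at 303 ± 58.6 CPM without copper and 171 ± 23.9 CPM with it (SD, n = 3). The neuron gene elav rose 1.27-fold in the IntS6 line (adjusted p = 0.0442) and was not called with copper in parental cells (log2 0.24) or the IntS12 line (0.29). The part of these shifts in the IntS4 result was not tested.

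The other copper calls were smaller and were each made in 1 kind of cell, and for none of them was the difference in response between kinds called. IntS1 measured 70.2, 67.5 and 71.8 CPM in untreated parental libraries and 78.5, 78.4 and 79.6 CPM with copper, which did not overlap. Its rise was 1.13-fold (log2 0.18 ± 0.06, edgeR adjusted p = 0.0198), and the call ended without parental library B (0.0768), with no filter on low counts (0.118) and when only the 2 groups were fitted (0.0852). In the IntS12 line IntS1 was not called (log2 0.14 ± 0.06, adjusted p = 0.0699), but it was without IntS12 copper library A (0.0449). The fall of omd in parental cells was 1.24-fold (log2 -0.31 ± 0.10, adjusted p = 0.0167), with libraries that did not overlap. That call ended without parental library B (0.0934) or parental copper library B (0.0812). In the lines omd was not called with copper, at log2 0.09 ± 0.10 in the IntS6 line and -0.15 ± 0.10 in the IntS12 line.

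In the IntS6 line IntS9 measured 8.38, 8.92 and 9.51 CPM in libraries A, B and C without copper and 10.4, 10.5 and 11.2 CPM with it. The groups did not overlap, and the rise was 1.19-fold (log2 0.26 ± 0.10, edgeR adjusted p = 0.0428). It was called in 4 of 13 alternatives. The call ended with DESeq2 (adjusted p = 0.113), with no filter (0.221), with rRNA genes left out (0.0592) and when only the 2 groups were fitted (0.0787). Leaving out IntS6 library A (0.144) or B, or IntS6 copper library A (0.0593), B (0.0667) or C (0.132), ended it too. In the IntS12 line IntS3 fell from 29.6, 28.2 and 31.4 CPM to 26.8, 25.2 and 23.8 CPM, 1.18-fold (log2 -0.23 ± 0.08, adjusted p = 0.0304), with no overlap. Library sizes alone (0.0881) ended that call, as did leaving out IntS12 library A (0.0587) or C (0.117) or IntS12 copper library B (0.0642) or C (0.122). IntS2, defl and IntS11 were not called with copper in any kind of cell.

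**Figure D4:**
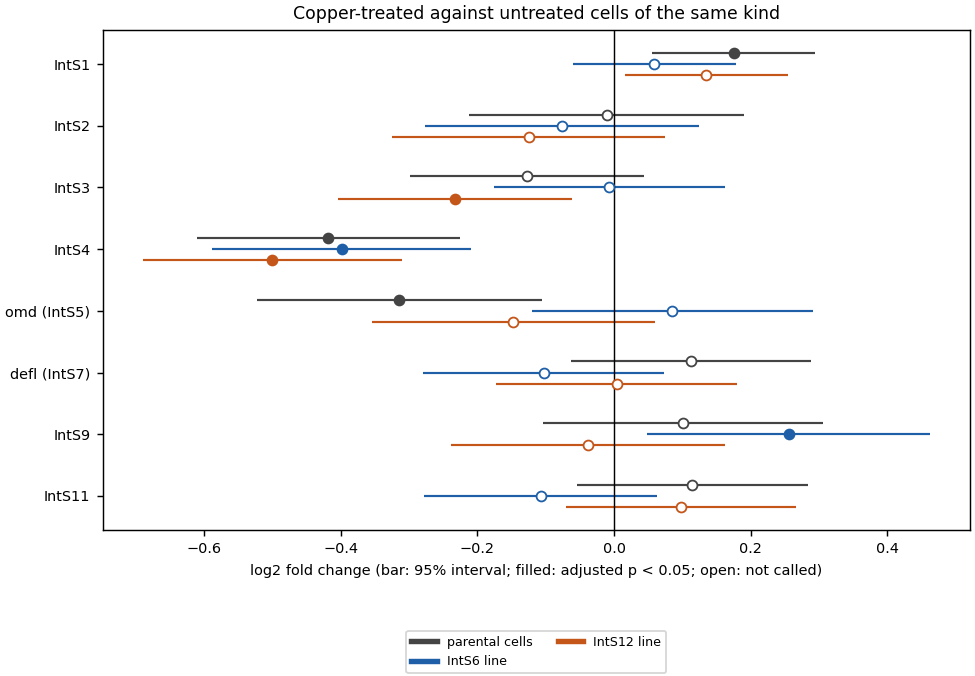
The log2 fold change of each of 8 subunit genes with copper against no copper in grey for parental cells, blue for the IntS6 line and orange for the IntS12 line, with 95% intervals and filled points where the adjusted p was under 0.05. IntS4 lies between -0.50 and -0.40 in all 3 kinds of cell, and omd lies at -0.31 in parental cells and 0.09 in the IntS6 line.

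Whether a line responded to copper differently from parental cells was tested for each gene as the difference of the 2 responses. For the IntS6 line 0 of 8 genes were called by edgeR's quasi-likelihood test and 0 by DESeq2, where edgeR called 1.16% of all genes. Only omd had an unadjusted p under 0.05, and the share of all genes at that level was not counted. For the IntS12 line 0 were called by either tool and 0 had an unadjusted p under 0.05, where 0.0122% of all genes were called. The intervals of these differences were wider than those of single comparisons, -0.47 to 0.69 for the IntS6 line and -0.43 to 0.46 for the IntS12 line.

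IntS12 is a single protein-coding exon of 1184 bases on the plus strand of chromosome 3R (26863376 to 26864559, FBgn0039459). It measured 5.52, 4.92 and 4.50 CPM in untreated parental libraries A, B and C and 3.98, 3.52 and 3.37 CPM with copper, which did not overlap. This 1.38-fold fall was called (edgeR adjusted p = 0.0217). The call was lost in a fit of these groups alone (0.0597), and on leaving out untreated library A (0.0929) or copper-treated library B (0.0723) or C (0.0599). In the IntS6 line it measured 4.34, 4.52 and 3.80 CPM without copper and 2.62, 3.99 and 3.29 CPM with it, with overlap and no call (log2 -0.37 ± 0.16, adjusted p = 0.0718). Without IntS6 copper library B the call was made there (log2 -0.53, adjusted p = 0.0211). In its own line, where counts do not part transgene from endogenous transcripts, it measured 7.11, 8.53 and 9.69 CPM without copper and 94.6, 88.4 and 95.6 CPM with copper. That rise was 11.1-fold (log2 3.47 ± 0.11, adjusted p = 2.38e-16). The excess without copper over untreated parental cells, 1.68-fold (adjusted p = 0.0366), was called in 7 of 13 alternatives. A fit of those groups alone lost it (0.230). Leaving out parental library A (0.0680), B (0.133) or C (0.165) lost it, and so did leaving out library B (0.303) or C (0.269) of the untreated line.

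The rest of the Integrator assembly and its neighbours in RNA 3′ end formation were described from lists. Of the other subunits and the phosphatase core (IntS6, IntS10, asun, IntS14, Pp2A-29B and mts), IntS6, the transgene's own gene, was the 1 gene of 6 called with induced IntS6, and 0 of 6 were called with induced IntS12. Over all tested genes 8.91% were called with induced IntS6 and 0.0245% with induced IntS12. With copper IntS6 rose 1.30-fold in parental cells (adjusted p = 0.000524) and 1.29-fold in the IntS12 line (0.000491), and mts, the catalytic subunit gene of the phosphatase, fell 1.14-fold in the IntS6 line (edgeR adjusted p = 0.0238). Copper calls made up 38.6% of all tested genes in parental cells, 42.6% in the IntS6 line and 36.8% in the IntS12 line.

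Of 14 listed cleavage and polyadenylation factors 13 had a row. With induced IntS6 Sym, the symplekin scaffold gene, was 1.18-fold lower (log2 -0.24 ± 0.08, edgeR adjusted p = 0.0441), the 1 called gene of the 13, and with induced IntS12 none was called. Cpsf73, the paralog of IntS11 and nuclease of the poly(A) machinery, stood at 15.3 ± 1.12 CPM in copper-treated parental cells, 15.0 ± 0.836 CPM with induced IntS6 and 16.4 ± 1.78 CPM with induced IntS12 (SD, n = 3). Its partner Cpsf100, the paralog of IntS9, was not called with induced IntS6 (log2 -0.25 ± 0.10, adjusted p = 0.122). With copper in parental cells 3 of the 13 fell and 1 rose. The fallen genes were su(f) (1.62-fold, edgeR adjusted p = 4.28e-06), Wdr33 (1.37-fold) and Cpsf160 (1.23-fold), and Sym rose 1.21-fold. With copper 3 of the 13 fell in the IntS6 line and 4 in the IntS12 line, and 0 rose in either. Over all tested genes 8.91% were called with induced IntS6, and with copper 38.6% in parental cells, 42.6% in the IntS6 line and 36.8% in the IntS12 line, so the list's share with copper was below that of all genes in each. The median log2 fold change of the 13 was -0.05 with copper in parental cells and -0.08 with induced IntS6, beside 0.00 and -0.01 over all genes.

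Neither the 7 factors of snRNA gene transcription nor the 12 RNA polymerase II subunit genes had a called member with either induced transgene. Of all tested genes 8.91% were called with induced IntS6 and 0.0245% with induced IntS12. The median log2 fold changes of the 7 and the 12 genes were -0.09 and -0.12 with induced IntS6 and -0.11 and 0.05 with induced IntS12. With copper in parental cells Polr2A, the largest subunit gene, rose 1.14-fold (edgeR adjusted p = 0.00957) and Polr2K 1.24-fold (0.0470), 2 of 12, and none of the 7 snRNA gene factors was called, where 38.6% of all genes were. In the IntS6 line, with 42.6% of all genes called, 0 of the 12 were called with copper. Of the 7 snRNA gene factors there, TfIIA-L rose 1.26-fold (adjusted p = 0.00128) and TfIIA-S fell 1.21-fold (0.00846), both encoding parts of the general factor TFIIA. In the IntS12 line, with 36.8% of all genes called, 4 of the 12 rose and none of the 7 was called.

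The average profile of the 8 genes over the 6 group means was nearly flat, from -0.06 in the IntS12 line with copper to 0.04 in the IntS6 line without it, on a log2 scale centred on its own mean. That average combines genes that moved differently. IntS4 ran from -0.26 to 0.25, and in parental cells with copper omd lay at -0.20 and IntS1 at 0.08. The 3 tested genes nearest to the average were Src42A, a Src family kinase gene, Ube4A and snoRNA:Psi18S-1377d. They are likewise nearly flat and need not resemble any single subunit gene. Their root-mean-square distances over the 6 group means were 0.00786, 0.0101 and 0.0101 on the log2 scale.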

How the data were processed

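The authors' deposited table gives estimated counts per gene in 18 libraries, of which 13.4% of values were not whole. The submitters' processing notes name Trimmomatic 0.39, featureCounts and the builds dm6 and BDGP6. No source used here gives the aligner, annotation release or strand setting. Symbols were matched for 17625 identifiers, and coordinates and exon lengths came from BDGP6.54. Counts were rounded and fitted once over all 18 libraries with 6 group means (R 4.3.3, edgeR 4.0.16, TMM factors, default low-count filter, 8174 of 13350 genes with counts, 12 residual degrees of freedom). The quasi-likelihood test was adjusted over all tested genes in each of 10 comparisons. Every ± beside a log2 fold change is its size divided by the square root of F, and 95% intervals use the moderated t quantile. CPM uses TMM-scaled library sizes of the tested genes, rRNA genes included, whereas TPM leaves rRNA genes out. The rRNA genes held 70.2% to 73.4% of each library's counts.

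The members and lists were chosen with earlier results of these data known. The text names every member, IntS6 and up to 4 genes of a list with the smallest p; Cpsf73, MtnA and asRNA:CR46109 fall outside that rule, and the markers serve only to check the cells. Of the lists, Cpsf5 had no matching row. Libraries of a group differed beyond counting noise (chi-square per degree of freedom 4.98 to 20.0), so none were merged. Deviations of same-letter libraries correlated above 0.1 for all 3 letters in parental copper against no copper (0.122, 0.114 and 0.278) and in IntS6 against parental cells with copper (0.213, 0.244 and 0.136), across genes, which are not independent. The main fit nevertheless left the letter out, so its p-values are unpaired, and pairing entered only through the block among the alternatives. Alternatives were DESeq2 1.42.0, its size factors, library sizes alone, no filter, rRNA genes left out, only the groups compared, the replicate letter as a block, and leaving out each library.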

Additional observations from a re-analysis of the deposited data

Results flagged for a closer look

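The copper response differed between a line and parental cells for each overexpressed gene itself. For IntS12 the response in the IntS12 line minus that in parental cells was 3.93 on the log2 scale (SE 0.19, edgeR adjusted p = 6.1e-12), with IntS12 higher with copper in all 3 of its libraries than in any without. For IntS6 the response in the IntS6 line minus that in parental cells was 4.67 (SE 0.11, adjusted p = 8.55e-19). For none of the other 8 measured subunit genes was such a difference called in either line.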

How the results depend on the processing

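Of 1420 gene values under the alternatives (7 settings besides the 18 that leave out 1 library), 1381 kept their side of the threshold, 34 lost a call, 5 gained one and 0 called values reversed, while 56 values called in neither fit changed sign. Counts of the 8 measured genes besides IntS12 that were called moved as follows. For copper in parental cells the count was 3, then 2 with no filter or only those groups fitted and 1 to 3 with a library left out. For induced IntS6 against parental cells it was 1, then 0 when only those groups were fitted and 0 to 1 with a library left out. Without parental copper library A the called gene was IntS3 and no longer omd. For copper in the IntS6 line it was 2, then 1 with no filter, rRNA genes left out, only those groups fitted or DESeq2, and 1 to 2 with a library left out. For copper in the IntS12 line it was 2, then 1 with library sizes alone and 1 to 3 with a library left out. For induced IntS6 against induced IntS12 it was 0, then 1 with DESeq2's size factors and 1 with the replicate block (IntS3, log2 0.27, adjusted p = 0.0256). The block changed no other count. In the other 5 comparisons the count was 0 in every alternative run. Over all genes, 728 calls with induced IntS6 ranged from 454 with only those groups fitted to 904 with no filter. With induced IntS12, 2 became 1 to 22. In the untreated IntS6 line 17 became 13 to 48, and in the untreated IntS12 line 3 became 1 to 32. Between the induced lines 474 ranged from 307 without IntS12 copper library A to 670 with no filter. The 95 and 1 differences in copper response became 43 to 238 and up to 8.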
